A study of Mus musculus with 4 samples.

Results

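The machinery that shortens poly(A) tails, removes caps and silences mRNAs was examined in anti-YTHDF2 RNA immunoprecipitation followed by sequencing (RIP-Seq) of newborn mouse retina. 47 genes were chosen by symbol from the 52550 genes of the count table, and all 47 were found and passed the filter on low counts, which 13632 genes passed. Of the 47 transcripts, 7 were enriched in the RIP against the input (*Cnot1*, *Dcp2*, *Smg1*, *Ago4*, *Tnrc6b*, *Tnrc6c* and *Dicer1*), 7 were depleted (*Cnot4*, *Patl1*, *Xrn2*, *Upf3a*, *Upf3b*, *Zfp36* and *Zfp36l1*), and 33 were neither. That is 14.9% enriched and 14.9% depleted, against 9.43% and 17.2% of all tested genes. The enriched transcripts included 4 of the 8 coding for Argonaute, TNRC6 and Dicer proteins. The depleted ones included both of the UPF3 paralogs and 2 of the 3 ZFP36 family genes among the 47. The enriched transcripts were long and most of the depleted ones short, and only *Dcp2* of the 7 enriched ones kept its call once the trends of the fold changes on transcript length and GC content were taken out.

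The tissue was retina of wild type C57BL/6 mice at postnatal day 0 (P0), dissociated with papain and given no treatment, knockout or knockdown. There were 2 input libraries and 2 RIP libraries, and each of the 2 replicates gave 1 input and 1 RIP. The study calls the replicates biological, but how many animals were pooled is not given in the sources used here, and a control pulldown was not analysed here. The comparison asks which transcripts YTHDF2 binds.

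YTHDF2 is a cytoplasmic reader of N6-methyladenosine (m6A), a mark laid on mRNA mainly around stop codons and in 3′ UTRs. It is known to bring the CCR4-NOT deadenylase to marked mRNAs through the scaffold protein CNOT1, after which tails are shortened and the mRNAs are decapped and degraded from the 5′ end. CCR4-NOT and the decapping enzymes also serve microRNA silencing, nonsense-mediated decay and decay through AU-rich or Pumilio elements. The measurements here are of the mRNAs that code for these factors, not of the proteins.

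m6A is commonly placed within the motif GGACT, with U for T in RNA. On the transcript strand of the longest protein-coding transcript of each gene (GENCODE M21), GGACT occurred in 45 of the 47 members (95.7%), against 93.1% of 11953 tested protein-coding genes. *Cnot3* and *Upf3a* had no match. Enriched and depleted members alike carried it, and the match nearest to the stop codon is shown here for 4 enriched and then 4 depleted members, in 21 bases with the motif in capitals. Coordinates are of GRCm38, every window lies within 1 exon, and positions count from the last coding base, negative inside the coding sequence. A match is not evidence of methylation, which was not measured in these libraries.

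*Cnot1*, coding sequence, chr8:95723389-95723409, minus strand, position -460: ctacgtagGGACTcaggctat

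*Dicer1*, 3′ UTR, chr12:104691573-104691593, minus strand, position 11: aagcttccGGACTcacaggcg

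*Tnrc6c*, 3′ UTR, chr11:117761651-117761671, plus strand, position 811: tgtgtgagGGACTtaactgtg

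*Ago4*, 3′ UTR, chr4:126492943-126492963, minus strand, position 271: tttctaaaGGACTttccaaga

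*Zfp36*, 3′ UTR, chr7:28377494-28377514, minus strand, position 55: gagggcagGGACTgctcattg

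*Zfp36l1*, 3′ UTR, chr12:80108992-80109012, minus strand, position 588: ttgttgctGGACTtggggttt

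*Cnot4*, coding sequence, chr6:35024239-35024259, minus strand, position -422: actttggtGGACTgcccaatt

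*Upf3b*, coding sequence, chrX:37095768-37095788, minus strand, position -405: agggaccgGGACTatgagaga

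Input replicates 1 and 2 held 39499994 and 36236531 counts, RIP replicates 1 and 2 held 19530226 and 24903212, and of these 2083594 to 4175459 fell on protein-coding genes. 2 ribosomal RNA genes took 55.0 to 55.5% of input counts and 85.3 to 87.8% of RIP counts. The members held 15485 to 23817 counts per library, or 0.452 and 0.570% of the protein-coding counts of input replicates 1 and 2 and 0.801 and 0.743% of those of RIP replicates 1 and 2. The lowest count of any member in any library was 15. All 8 ganglion cell markers, 8 progenitor markers and 6 amacrine and horizontal markers had at least 10 counts in both inputs, as had 5 of 6 photoreceptor markers, as fits retina, while 7 of 9 lens markers were at 0 in all 4 libraries. The markers of the retinal cell types differed between RIP and input too. The ganglion cell markers summed to 63.4 to 67.3 CPM in the inputs and 27.2 CPM in both RIP libraries. Progenitor markers (699 to 965 and 610 to 631 CPM) and amacrine and horizontal markers (72.7 to 127 and 53.0 to 58.9 CPM) were lower in the RIP too. Photoreceptor markers were higher, at 96.1 to 105 CPM in the inputs and 127 to 142 CPM in the RIP libraries. The vessel markers, 4 genes, summed to 32.3 to 33.4 CPM in the inputs and 65.4 to 67.2 CPM in the RIP libraries. Input and RIP of equal replicate number were taken to come from the same retinas, and the part of these markers in the results below was not tested. In the input levels, which are of RNA of whole retina, fewer cells of a type and less RNA per cell cannot be told apart.

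Levels of a member across libraries are given as CPM, counts relative to library size after scaling by the trimmed mean of M values (TMM), and levels between genes as FPKM, which the authors divided by gene length. In the inputs *Zfp36l1* stood far above the others, at 29.0 and 37.5 FPKM. *Lsm14b* came next at 6.99 and 5.44 FPKM, followed by *Zfp36l2* at 4.51 and 5.52 and *Btg1* at 4.22 and 4.87. Of these 4, *Zfp36l1* was apart, and each of the others overlapped its neighbour in this order. The CCR4-NOT members ran from 0.498 FPKM (mean of the inputs, *Cnot6l*) to 3.81 FPKM (*Cnot9*). The lowest member was *Ago3*, with 0.0333 and 0.217 FPKM, which overlapped *Ago4* at 0.142 and 0.320.

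**Figure D1:**
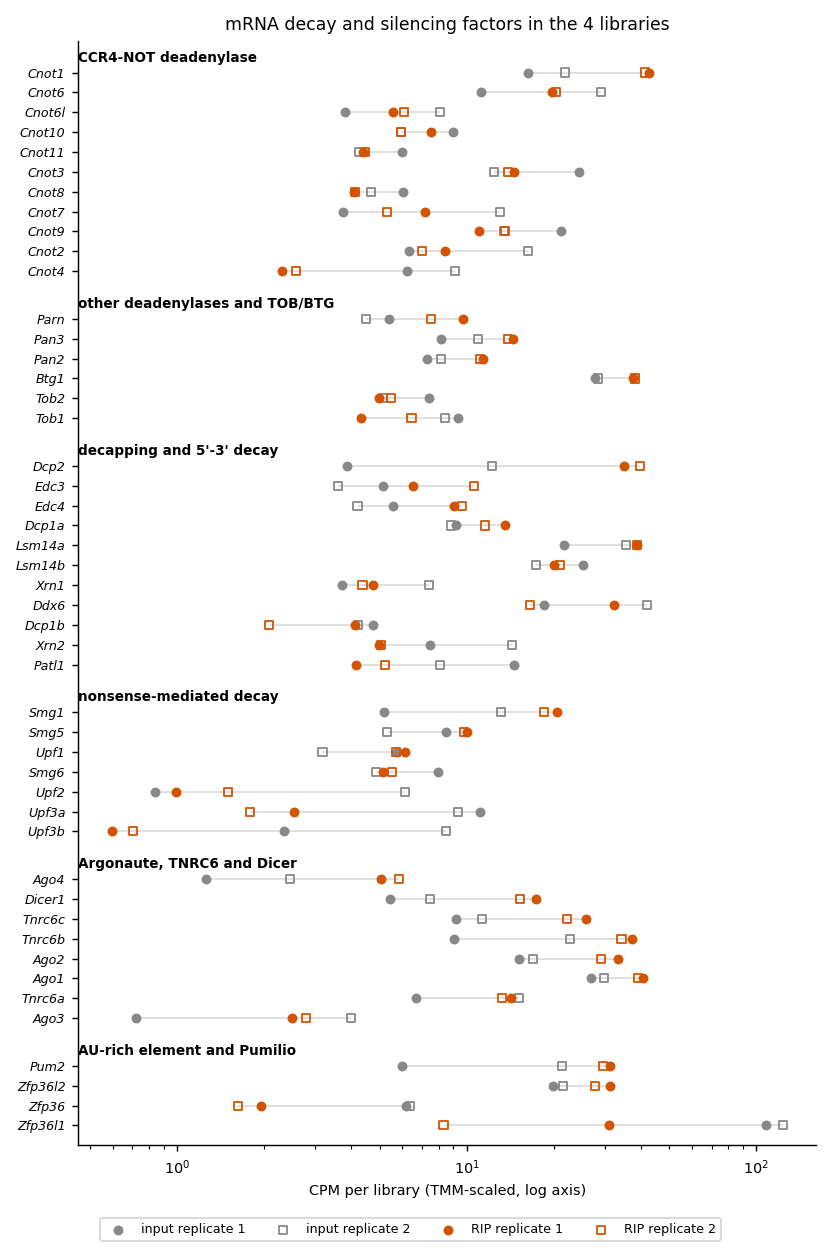
CPM on a log axis (TMM-scaled) for each of the 47 transcripts in the 4 libraries, grouped by role. Grey marks are inputs and orange marks RIP libraries, filled circles replicate 1 and open squares replicate 2, and a line spans each transcript's values. The RIP marks lie above both inputs for 20 transcripts, below both for 10, and overlap them for 17.

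A fold change compares a transcript's share of the RIP library with its share of the input, so it is relative and not an amount bound. A transcript counted as enriched where its log2 fold change reached 1 and its unadjusted p (edgeR quasi-likelihood test) was below 0.05, and as depleted where it reached -1. By this rule 7 of 47 members (14.9%) were enriched, against 9.43% of all tested genes, and 7 (14.9%) were depleted, against 17.2%. With p adjusted over all tested genes below 0.05 (edgeR), 3 members (6.38%) were enriched against 3.48% of all, and 5 (10.6%) depleted against 9.78%. Counts by adjusted p, here and below, use the direction of the fold change and no fold limit. Both RIP libraries lay above both inputs for 20 members (42.6%, against 29.6% of all tested genes) and below them for 10 (21.3%, against 31.3%). The median log2 fold change was -0.01 over the members and -0.05 over all tested genes, with 23 members above 0 and 24 below. Scaling by library size alone shifted the median of all tested genes to 0.27 and gave 12 enriched and 5 depleted members, against 17.3% and 12.7% of all tested genes. No test was run over the members as a list. For a single gene, 2 against 2 libraries can give an exact permutation p of no less than 0.333, so each call rests on the spread shared across genes in the fit.

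**Figure D2:**
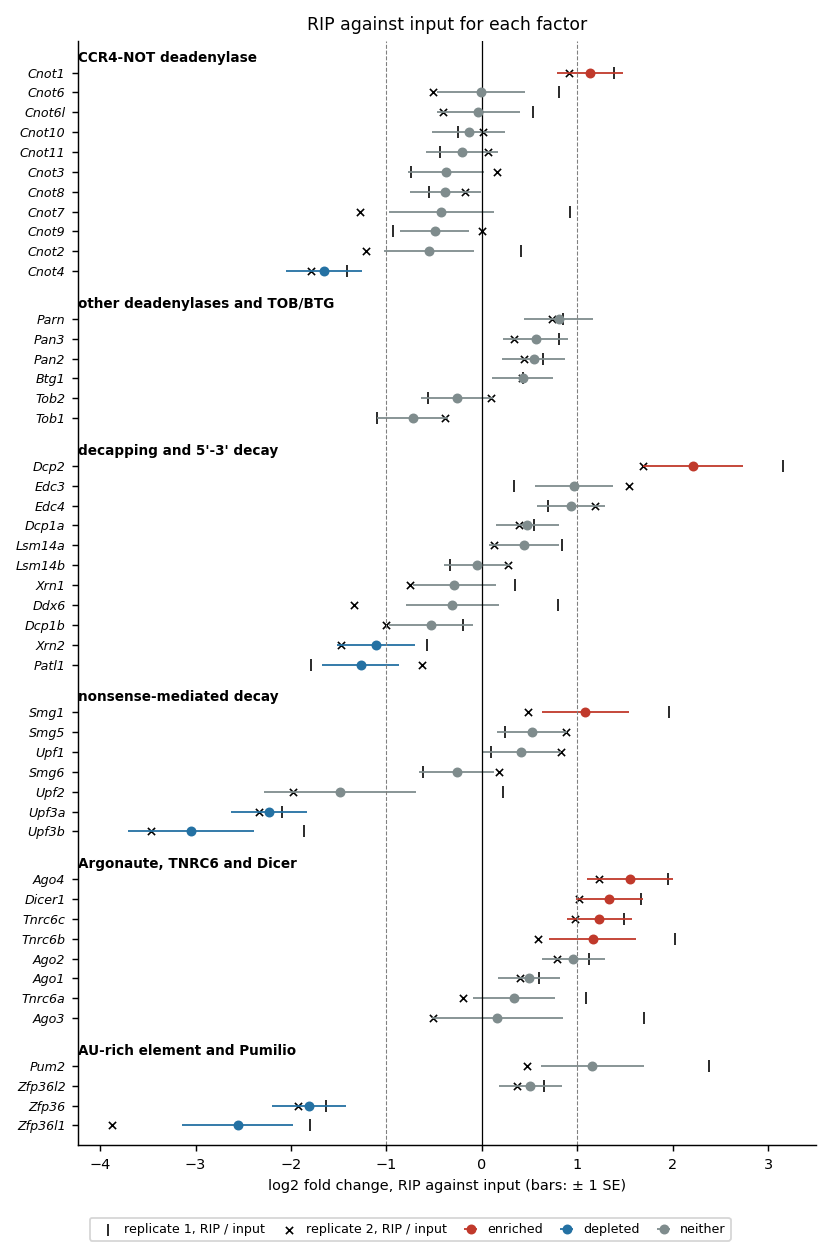
Log2 fold change of RIP against input for each of the 47 transcripts, with bars of 1 SE, grouped by role, and coloured by call (red enriched, blue depleted, grey neither). The black tick and cross are the ratios within replicate 1 and replicate 2, and dashed lines mark -1 and 1. All 8 fitted values of the Argonaute, TNRC6 and Dicer group lie above 0. The replicate 2 ratios of *Ago3* (-0.51) and *Tnrc6a* (-0.19) lie below it. Only *Cnot1* of the 11 CCR4-NOT transcripts has a fitted value above 0. With library size alone, where the median of all tested genes was 0.27, *Cnot6*, *Cnot6l*, *Cnot10* and *Cnot11* also lay above 0.

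The CCR4-NOT complex holds the main deadenylases of the cell. Of its 11 members, 1 was enriched, 1 was depleted and 9 were neither, with a median log2 fold change of -0.37. Each call thus took 9.09%, against 9.43% (enriched) and 17.2% (depleted) of all tested genes. *Cnot1*, which codes for the scaffold that carries all other subunits and is the contact of YTHDF2, was at 16.3 and 21.9 CPM in the inputs and at 42.5 and 41.2 CPM in the RIP libraries. It was the only member of the complex whose RIP values lay above both inputs, 2.19-fold by the fit (log2 1.13, SE 0.34, adjusted p = 0.063 by edgeR). *Cnot4*, a RING-type ubiquitin ligase tied to the complex, was at 6.24 and 9.09 CPM in the inputs and at 2.30 and 2.58 CPM in the RIP libraries. The groups did not overlap, and the input was 3.14-fold higher (log2 -1.65, SE 0.40, adjusted p = 0.030 by edgeR). The call on *Cnot1* was lost when input replicate 1 was left out (log2 0.93), when RIP replicate 1 was (1.19) and when RIP replicate 2 was (1.23), and that on *Cnot4* without RIP replicate 1 (-1.49).

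None of the catalytic subunits of the complex passed the limits. The CCR4-type nucleases *Cnot6* and *Cnot6l* were at log2 fold changes of -0.01 and -0.04, and the CAF1-type nucleases *Cnot7* and *Cnot8* at -0.42 and -0.38. *Cnot7* shows how far the inputs could differ: its inputs were at 3.75 and 13.03 CPM and its RIP libraries at 7.17 and 5.32 CPM, between them. The ratio within replicate 1 was then 0.92 and that within replicate 2 -1.28 on the log2 scale. The subunits *Cnot2*, *Cnot3*, *Cnot9*, *Cnot10* and *Cnot11* lay between -0.56 and -0.14, and in all 5 the RIP values overlapped the inputs.

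The other deadenylases and the TOB/BTG proteins, which bind the CAF1-type nucleases, were 6 transcripts, with a median of 0.49. None was called, where 9.43% of all tested genes were enriched and 17.2% depleted. *Btg1*, an antiproliferative protein and the one with the highest input FPKM of the 6, was at 27.8 and 28.4 CPM in the inputs and at 37.5 and 38.1 CPM in the RIP libraries. The RIP values were above both inputs, by 1.35-fold (log2 0.43, SE 0.32, adjusted p = 0.41 by edgeR). *Pan2* and *Pan3*, the nuclease and the adaptor of the PAN complex, were at 0.54 and 0.56, and *Parn*, a poly(A)-specific ribonuclease, at 0.81 (adjusted p = 0.18 by edgeR). *Tob1* and *Tob2* were at -0.72 and -0.26. The groups did not overlap in *Pan2*, *Pan3*, *Parn* and *Tob1*, but the differences were below the fold limit. Counting *Btg1*, both RIP values lay above both inputs in 66.7% of the 6 and below both in 16.7%. Of all tested genes, 29.6% and 31.3% did.

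Of the 11 transcripts of decapping and 5′ to 3′ decay, 1 was enriched and 2 were depleted, with a median of -0.05. These shares of 9.09% and 18.2% stood against 9.43% and 17.2% of all tested genes. *Dcp2*, the enzyme that cleaves the cap, was at 3.87 and 12.2 CPM in the inputs and at 35.0 and 39.7 CPM in the RIP libraries. Both RIP values exceeded the higher input, although the inputs differed 3.13-fold between themselves. The fold change was 4.64 (log2 2.21, SE 0.53, adjusted p = 0.029 by edgeR), the largest rise among the 47. It ran from 1.61 without input replicate 1 to 3.26 without input replicate 2 on the log2 scale and stayed enriched under all 14 alternatives. By FPKM, *Dcp2* rose from 0.815 (mean of the inputs) to 4.41 (mean of the RIP libraries).

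Of the partners of DCP2, *Edc4* and *Edc3*, scaffolds that activate decapping, were at 0.94 and 0.97, just under the fold limit (adjusted p = 0.12 and 0.15 by edgeR), with RIP above input in all 4 pairings of libraries. With length and GC trends taken out they were at 0.20 and 0.24, and both were called enriched with library size alone, on log2(FPKM + 0.1) and without a filter on low counts. They are singled out after their values were seen, and 22.1% of the exon bases of *Edc3* are shared with *Clk3* on the opposite strand. The cofactors *Dcp1a* and *Dcp1b* were at 0.48 and -0.53, and *Lsm14a* and *Lsm14b*, proteins of P-bodies, at 0.44 and -0.05. *Ddx6*, the P-body helicase, differed between replicates: its inputs were at 18.5 and 41.9 CPM and its RIP libraries at 32.1 and 16.5 CPM. Its RIP level was above the input within replicate 1 and below it within replicate 2.

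*Patl1* and *Xrn2* were the depleted transcripts of this role. *Patl1*, which links deadenylated mRNAs to decapping, was at 14.6 and 8.10 CPM in the inputs and at 4.16 and 5.24 CPM in the RIP libraries, 2.42-fold lower in the RIP (log2 -1.27, SE 0.41, adjusted p = 0.075 by edgeR). *Xrn2*, the nuclear 5′ to 3′ exonuclease, was at 7.47 and 14.3 CPM in the inputs and at 4.99 and 5.07 CPM in the RIP libraries (log2 -1.11, SE 0.41, adjusted p = 0.11 by edgeR). The cytoplasmic enzyme *Xrn1* was at -0.29, and its RIP values of 4.76 and 4.37 CPM lay between its inputs of 3.72 and 7.43 CPM. Both calls were lost when either RIP library was left out (*Patl1* at -0.998 and -1.34, *Xrn2* at -1.03 and -1.06). *Patl1* also lost its call without input replicate 1 (-0.79) and *Xrn2* without input replicate 2 (-0.58).

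Nonsense-mediated decay removes mRNAs with premature stop codons. 1 of its 7 members was enriched and 2 were depleted (14.3% and 28.6%, against 9.43% and 17.2% of all tested genes). *Upf3a* and *Upf3b*, paralogs that tie the UPF proteins to exon junctions, were both depleted. *Upf3a* was at 11.1 and 9.30 CPM in the inputs and at 2.54 and 1.79 CPM in the RIP libraries, 4.70-fold lower (log2 -2.23, SE 0.39, adjusted p = 0.0091 by edgeR). *Upf3b* was at 2.34 and 8.48 CPM in the inputs and at 0.595 and 0.707 CPM in the RIP libraries, 8.28-fold lower (log2 -3.05, SE 0.66, adjusted p = 0.020 by edgeR). In neither did the groups overlap. Without input replicate 1 the log2 value of *Upf3b* was -3.70 and without input replicate 2 it was -1.85.

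*Smg1*, the kinase that phosphorylates UPF1, went the other way, from 5.19 and 13.1 CPM in the inputs to 20.5 and 18.4 CPM in the RIP libraries (log2 1.09, SE 0.46, adjusted p = 0.15 by edgeR). Its call was lost without input replicate 1 (0.57), without RIP replicate 1 (1.07) and without RIP replicate 2 (1.21). *Upf2*, the bridge between UPF1 and UPF3, had inputs of 0.840 and 6.12 CPM and RIP values of 0.991 and 1.497 CPM. Its log2 value of -1.48 had an SE of 0.80 and did not pass (adjusted p = 0.25 by edgeR), and without input replicate 2 it was 0.56. The helicase *Upf1* was at 0.41, the adaptor *Smg5* at 0.52 and the endonuclease *Smg6* at -0.26.

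MicroRNAs act through Argonaute proteins, whose TNRC6 partners recruit CCR4-NOT, and Dicer cuts the microRNA precursors. All 8 transcripts of this role lay above 0, between log2 fold changes of 0.16 and 1.55, with a median of 1.06. Once length and GC trends were taken out, *Ago1* (-0.32), *Tnrc6a* (-0.36) and *Ago3* (-0.07) fell below 0. The median of all tested genes was then -0.17. 4 of the 8 were enriched (against 9.43% of all tested genes and 22.4% of protein-coding genes over 7000 nt, as 7 of the 8 are), none was depleted, and in 6 (against 29.6%) both RIP values lay above both inputs. *Ago4* was at 1.26 and 2.45 CPM in the inputs and at 5.07 and 5.82 CPM in the RIP libraries (log2 1.55, SE 0.45, adjusted p = 0.054 by edgeR). *Dicer1* was at 5.43 and 7.49 CPM in the inputs and at 17.4 and 15.2 CPM in the RIP libraries (log2 1.34, SE 0.35, adjusted p = 0.040 by edgeR). Each of these RIP values was over the higher input of its gene.

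*Tnrc6c* was at 9.15 and 11.3 CPM in the inputs and at 25.8 and 22.2 CPM in the RIP libraries (log2 1.23, SE 0.34, adjusted p = 0.046 by edgeR). Its paralog *Tnrc6b* was at 9.06 and 22.8 CPM in the inputs and at 37.1 and 34.2 CPM in the RIP libraries (log2 1.16, SE 0.46, adjusted p = 0.13 by edgeR). The third paralog, *Tnrc6a*, was at 6.66 and 15.2 CPM in the inputs and at 14.3 and 13.3 CPM in the RIP libraries, which overlap (log2 0.33). *Tnrc6b* lost its call without input replicate 1 (0.64), RIP replicate 1 (1.17) or RIP replicate 2 (1.27). *Tnrc6c* (1.21) and *Dicer1* (1.32) lost theirs without RIP replicate 1, and *Ago4* kept its call with any 1 library left out. With the replicate number as a block, *Tnrc6c* had an adjusted p of 0.065 and *Ago4* of 0.015 (edgeR), on the other side of 0.05 from their values without it.

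The 4 Argonautes were not alike in value. *Ago2*, the Argonaute that can slice its target, was at 15.2 and 16.9 CPM in the inputs and at 33.3 and 29.1 CPM in the RIP libraries, at a log2 fold change of 0.96 (SE 0.33, adjusted p = 0.092 by edgeR) just under the fold limit. It was at 0.09 with length and GC trends taken out, and it was called enriched with library size alone (1.30), on log2(FPKM + 0.1) (1.15) and without a filter on low counts (1.04). *Ago1*, with the highest FPKM of the 4, was at 0.50. *Ago3* was at 0.16, with an SE of 0.68, and its inputs of 0.720 and 3.99 CPM lay on both sides of its RIP values of 2.497 and 2.79 CPM. Differences between paralogs were not tested.

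The factors that bind AU-rich or Pumilio elements numbered 4. Both RIP values lay above both inputs in 2 of them and below both in 2, against 29.6% and 31.3% of all tested genes. *Zfp36*, also called tristetraprolin, which recruits CCR4-NOT to AU-rich elements, was at 6.18 and 6.38 CPM in the inputs and at 1.94 and 1.62 CPM in the RIP libraries, 3.52-fold lower (log2 -1.81, SE 0.39, adjusted p = 0.020 by edgeR). *Zfp36l1* was at 108 and 123 CPM in the inputs and at 30.9 and 8.32 CPM in the RIP libraries, 5.90-fold lower (log2 -2.56, SE 0.58, adjusted p = 0.024 by edgeR). It was the only member whose RIP libraries differed by more than 2-fold, and it was depleted without RIP replicate 1 (-3.71) and without RIP replicate 2 (-1.82). An antisense gene, *Gm26669*, covers 55.9% of the exon bases of *Zfp36l1* and held 203 counts over the libraries against 8812.

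The remaining ZFP36 paralog among the members, *Zfp36l2*, lay on the other side of 0 (log2 0.51, adjusted p = 0.33 by edgeR). It was at 19.9 and 21.5 CPM in the inputs and at 31.2 and 27.7 CPM in the RIP libraries. *Pum2*, which binds Pumilio elements, was at 5.97 and 21.3 CPM in the inputs and at 31.3 and 29.6 CPM in the RIP libraries. Both RIP values were above both inputs, which differed 3.54-fold between themselves, and it did not pass (log2 1.16, SE 0.54, adjusted p = 0.19 by edgeR). With the replicate number as a block, *Pum2* was enriched at 1.42 (adjusted p = 0.042 by edgeR). Without input replicate 1 it was at 0.51 and without input replicate 2 at 2.34.

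The binding elements of these last factors also occur in the members' own 3′ UTRs. TATTTAT, an AU-rich motif, was found on the transcript strand of the 3′ UTR in 20 of 47 members (42.6%), against 31.6% of tested protein-coding genes, and in *Zfp36*, *Zfp36l1* and *Zfp36l2* it occurred 3 times each. TGTANATA, the Pumilio motif, was found in 19 members (40.4%), against 28.5%, and *Pum2* had 2 matches. The 3′ UTRs of the members were longer, with a median of 1739 nt against 1260 nt, so the stretches searched were longer too.

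Transcript length moved with the fold change. The 7 enriched members had a median length of 8847 nt and the 7 depleted ones of 2990 nt, while the median was 4618 nt over the members and 3339 nt over tested protein-coding genes. The Argonaute, TNRC6 and Dicer transcripts had a median of 9349 nt and the CCR4-NOT transcripts of 3268 nt. Across the 47 genes, the Spearman correlation of log2 fold change with length was 0.67, and across the 11953 protein-coding genes it was 0.49. These are descriptions across genes of the same 4 libraries, and genes are not independent replicates.

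In bins of length set after the values were seen, none of 18 members under 3500 nt was enriched and 6 were depleted, where 4.56% and 23.9% of the protein-coding genes of that length were. Of 17 members of 3500 to 7000 nt, 1 was enriched and 1 depleted (15.2% and 4.34% of protein-coding genes). Of 12 members over 7000 nt, 6 were enriched and none depleted (22.4% and 3.68%). The 6 members over 7000 nt that were not enriched were *Xrn1* (10256 nt), *Cnot6l* (8564 nt), *Ago3* (15595 nt), *Tnrc6a* (8183 nt), *Ago1* (7227 nt) and *Ago2* (13800 nt), at log2 fold changes of -0.29, -0.04, 0.16, 0.33, 0.50 and 0.96. The density of GGACT tracked the fold change less closely: the Spearman correlation was 0.21 over the members and 0.075 over protein-coding genes, and the enriched members had a median of 1.31 matches per kb against 0.853 in the depleted ones and 1.04 in protein-coding genes.

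**Figure D3:**
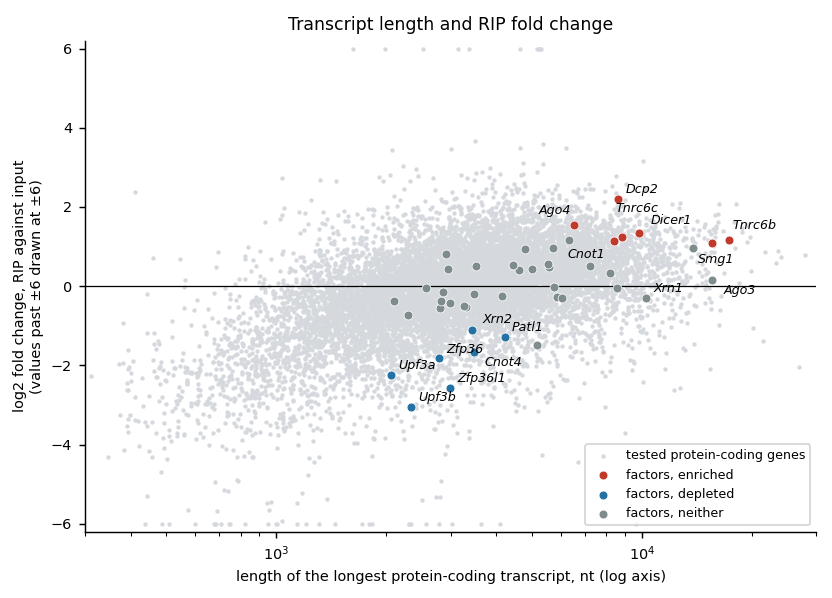
Length of the longest protein-coding transcript (nt, log axis) against the log2 fold change of RIP against input, for 11953 tested protein-coding genes (light grey) and the 47 factors (coloured by call). Values past 6 in size are drawn at the edge. Both clouds climb from left to right, and 6 of the 7 enriched factors lie past 7000 nt.

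When smooth trends on length and GC content were taken out of every library, 6 of the 7 enriched members fell below the limits. *Cnot1* was then at 0.40, *Smg1* at 0.49, *Tnrc6b* at 0.49, *Tnrc6c* at 0.27 and *Dicer1* at 0.55. *Ago4* was at 0.89, just under the fold limit (adjusted p = 0.10 by edgeR). *Dcp2* remained enriched at 1.81 (adjusted p = 0.0072 by edgeR). All 7 depleted members kept their call, between -2.71 for *Zfp36l1* and -1.16 for *Xrn2*. *Upf2* (-1.67, adjusted p = 0.13 by edgeR) and *Smg6* (-1.01, adjusted p = 0.053 by edgeR) were depleted as well, which gave 1 enriched and 9 depleted members, against 6.19% and 14.6% of the genes tested. The median of all genes tested was then -0.17, against -0.05 before the trends were taken out. What sets the relation with length was not tested.

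**Figure D4:**
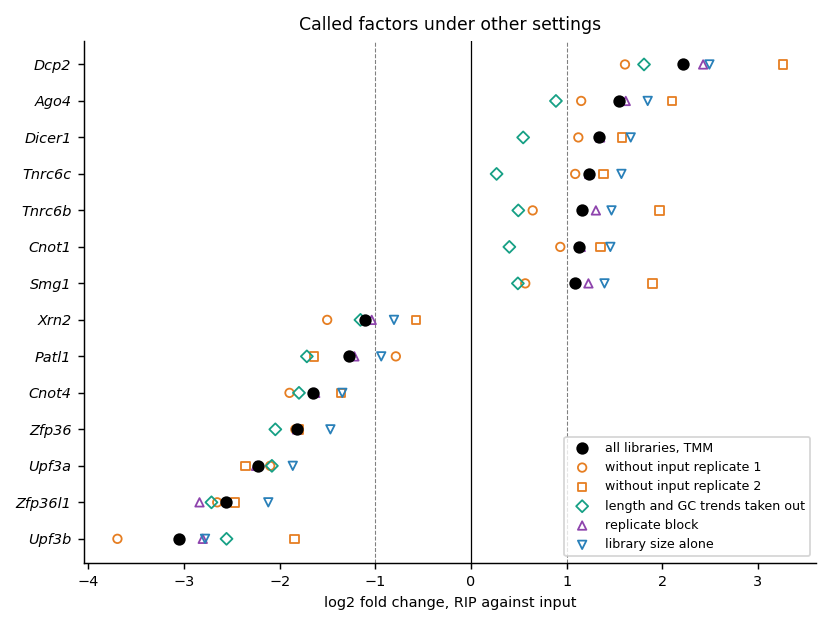
Log2 fold change of RIP against input for the 14 called factors with all libraries and TMM scaling (black) and under 5 alternatives (open marks). Dashed lines mark -1 and 1. With length and GC trends taken out (green diamonds), only *Dcp2* stays past 1 among the enriched factors, and all 7 depleted ones stay past -1.

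The inputs differed from each other more than the RIP libraries did. 13 members (27.7%) differed by more than 2-fold between the inputs, all 13 higher in input replicate 2, whereas 1 member did between the RIP libraries. Over all tested genes, 25.7% differed as much between the inputs, and 16.8% were higher in input replicate 2. Between the RIP libraries, 1419 of the 13632 tested genes differed as much, against 3499 between the inputs. The difference followed base composition: input 2 minus input 1 had a Spearman correlation with GC content of -0.78 across the 47 members and of -0.60 across protein-coding genes. For RIP 2 minus RIP 1 the values were -0.20 and 0.012. *Upf2* (6.81-fold), *Ago3* (5.15-fold), *Upf3b* (3.55-fold), *Pum2* (3.54-fold), *Cnot7* (3.43-fold) and *Dcp2* (3.13-fold), each with a GC content of 40.7 to 43.5%, differed most. Of the called members, *Dcp2*, *Upf3b*, *Smg1* and *Tnrc6b* rest on inputs more than 2-fold apart. Across the members, the ratio within replicate 1 and that within replicate 2 had a Spearman correlation of 0.61, and these ratios share no library. Across all tested genes it was 0.56.

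**Figure D5:**
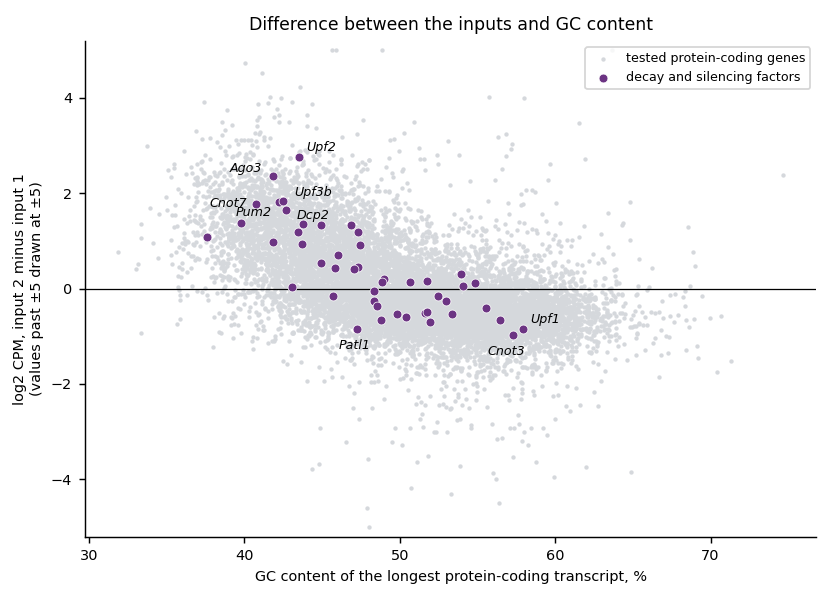
GC content of the longest protein-coding transcript (%) against log2 CPM of input replicate 2 minus input replicate 1, for tested protein-coding genes (light grey) and the 47 factors (purple). Values past 5 in size are drawn at the edge. GC-poor factors such as *Upf2* and *Ago3* lie far above 0 and GC-rich ones such as *Cnot3* and *Upf1* below it.

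A further 84 decay factors served as the rest of the pathway, of which 82 passed the filter on low counts (*Zc3h12a* and *Cpeb1* did not). 5 of the 82 were enriched (6.10%, against 9.43% of all tested genes) and 19 depleted (23.2%, against 17.2%), 16 of these with an adjusted p below 0.05 by edgeR (19.5%, against 9.78%), and the median log2 fold change was -0.08. Of the 19, 8 belonged to the list of the LSM ring and other decapping factors. The LSM ring, which binds shortened tails ahead of decapping, had *Lsm2* to *Lsm7* depleted, from -1.81 for *Lsm6* to -4.10 for *Lsm5*. *Lsm1* of the same ring was not called, at -0.65 with RIP values between its inputs. *Lsm5* was at 13.8 and 14.3 CPM in the inputs and at 0.515 and 1.12 CPM in the RIP libraries. The decapping coactivators *Pnrc1* (-1.72) and *Pnrc2* (-1.90) were depleted as well. That made 8 of the 15 on this list (53.3%, against 17.2% of all tested genes), whose median length was 1648 nt.

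On the list of other nonsense-mediated decay and exon junction factors, 3 of 10 were depleted (30%, against 17.2% of all tested genes). These were the exon junction proteins *Magoh* at -3.63 (692 nt), *Magohb* at -2.83 (897 nt) and *Rbm8a* at -1.57 (2757 nt). Of protein-coding genes under 3500 nt, 23.9% were depleted. Other core proteins of the exon junction complex, named after their values were seen, were not called, with *Eif4a3* at -0.55 and *Casc3* at 0.28. *Magoh* fell from 37.8 and 30.3 CPM in the inputs to 2.14 and 3.37 CPM in the RIP libraries. Of the 19 exosome and SKI factors, *Exosc1* (-2.09), *Exosc5* (-1.41) and *Exosc8* (-1.78) were depleted (15.8%, against 17.2% of all tested genes). Their transcripts had 2296, 1680 and 1300 nt. The helicase *Skiv2l* of the SKI complex was enriched (1.29). The nuclear poly(A)-binding protein *Pabpn1* (-1.67), its cytoplasmic counterpart's inhibitor *Paip2* (-1.52) and the Dicer partner *Prkra* (-1.17) were depleted. *Btg3* (1.64), the exporter of microRNA precursors *Xpo5* (1.24), *Trim71* (1.15) and the RNA-binding protein *Cpeb3* (1.63) were enriched.

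YTHDF2 also has an endonucleolytic route, through RIDA (HRSP12) and RNase P/MRP. *Rida* had 30 and 63 counts as input and 0 in either RIP library, which puts it at least 11.2-fold lower in the RIP against a floor of 3 counts per library, for counting error only. The RNase P subunit *Rpp38* had 34 and 25 counts as input and 4 and 0 after RIP (adjusted p = 0.081 by edgeR). The other 2 genes of this list were not called. *Rida* and *Rpp38* have short transcripts too, of 1004 and 1042 nt.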

How the data were processed

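P0 mouse retina gave 2 replicates, each sequenced as input and after anti-YTHDF2 RIP (100 ng RNA, TruSeq Stranded kit). The authors deposited whole-number counts per gene and FPKM values, in which the authors scaled for length and library size. The submitters' processing notes name STAR 2.5, HTSeq and GRCm38, and the strand setting of the counting is not given in the sources used here. The 47 members and all lists were chosen with earlier results of these data known.

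Counts were tested with edgeR 4.0.16 in R 4.3.3 (filterByExpr with minimum count 10 and total 15, TMM, glmQLFTest) over all genes, with Benjamini-Hochberg adjustment. The limits, a log2 fold change of 1 and p of 0.05, follow the study's list. Standard errors came from the fold change and F statistic. The test was checked on simulated data. P-values rest on the spread between 2 libraries a group, moderated by the spread shared across genes. Input sequencing was deeper than RIP sequencing on protein-coding genes, and intervals and floors cover counting error only.

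Lengths, GC content, motifs and sequences came from the longest protein-coding transcript in GENCODE M21, which held 52403 of the 52550 genes. Full values are given for called members and at least 1 member of each role, chosen by input FPKM where none was called. *Ago2*, *Edc3*, *Edc4*, *Upf2*, *Ddx6*, *Cnot7*, *Pum2*, *Ago3*, *Tnrc6a*, *Xrn1* and *Zfp36l2* were singled out after their values were seen. Other pathway genes are named where called or where they failed the filter, apart from *Lsm1*, *Eif4a3* and *Casc3*, named after their values were seen.

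Alternatives were library size alone, upper quartile scaling, DESeq2 1.42.0, other count filters, limma 3.58.1 on log2(FPKM + 0.1) and log2(FPKM + 1), a replicate block, length and GC trends (mgcv 1.9.3, basis size 8) taken out with and without the block, and each library left out. The series' design text gives each replicate an input and a pulldown, and samples of equal number were taken as 1 replicate. Across genes, input 2 minus input 1 and RIP 2 minus RIP 1 had a Spearman correlation of -0.032 over all tested genes and -0.064 over the 6858 that had 50 or more counts throughout.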

Additional observations from a re-analysis of the deposited data

How the results depend on the processing

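Of the 14 called members, 2 (*Dcp2* and *Zfp36l1*) kept their call under every alternative, each library left out included. Library size alone gave 12 enriched members (5 by adjusted p), 3 depleted by adjusted p, a median of 0.29 and 9 enriched of the other decay factors, and it lost *Patl1* and *Xrn2*. DESeq2 gave 6 enriched by adjusted p. Without a filter on low counts 0 members were enriched and 2 depleted by adjusted p (edgeR), with 9 enriched at unadjusted p, and *Smg1* lost its call. On log2(FPKM + 0.1) limma gave 12 enriched (1 by adjusted p), 3 depleted by adjusted p and a median of 0.35, where 12.4% of all genes were enriched and their median was 0.15. On log2(FPKM + 1), a scale that understates the change of low genes, it gave 2 enriched and 1 depleted (1 and 2 by adjusted p), where 2.66% and 7.28% of all genes were, and 0 enriched and 11 depleted of the other factors. With length and GC trends taken out, 1 member was enriched, 1 by adjusted p, and 2 of the other factors, the same with the replicate block. The replicate block gave 8 enriched and 7 depleted members (4 and 5 by adjusted p), and it changed no call other than that of *Pum2*, nor the side of 0.05 of an adjusted p other than those of *Pum2*, *Ago4* and *Tnrc6c*. With each library left out in turn, enriched members ranged from 3 to 11 (0 to 19 by adjusted p), depleted ones from 4 to 9 (0 to 13), the median from 0.10 to 0.44 and enriched other factors from 2 to 10. Counts of 0 by adjusted p came without either RIP library, where 3 or 4 members were still enriched at unadjusted p (edgeR). Where a group is left with 1 library, that library is assumed to vary like the others. Apart from the fewer libraries or the scale used, the cause of these changes was not tested.

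Some members changed sign, none of them called with TMM scaling and all libraries. The median of all tested genes moved too. It was 0.27 under library size alone, 0.15 on log2(FPKM + 0.1) and 0.052 on log2(FPKM + 1). Library size alone, log2(FPKM + 0.1) and log2(FPKM + 1) put *Cnot10* at 0.23, 0.13 and 0.079, *Cnot11* at 0.14, 0.074 and 0.045, *Cnot6* at 0.28, 0.39 and 0.26, *Cnot6l* at 0.26, 0.25 and 0.081, *Lsm14b* at 0.29, 0.23 and 0.20, *Smg6* at 0.082, 0.038 and 0.014 and *Tob2* at 0.080, 0.028 and 0.016. *Xrn1* was at 0.025 under library size alone and at 0.024 on log2(FPKM + 0.1), *Ddx6* at 0.056 under library size alone and *Cnot7* at 0.049 on log2(FPKM + 0.1). Without a filter *Cnot6* was at 0.037, *Cnot6l* at 0.019 and *Lsm14b* at 0.043, and with the block *Cnot6* was at 0.15 and *Cnot6l* at 0.058. With length and GC trends taken out, without and with the block, *Ago1* was at -0.32 and -0.32, *Dcp1a* at -0.18 and -0.18, *Pan2* at -0.046 and -0.031, *Pan3* at -0.037 and -0.036, *Smg5* at -0.16 and -0.15, *Tnrc6a* at -0.36 and -0.33 and *Upf1* at -0.34 and -0.32. Without the block *Ago3* was at -0.068 and *Btg1* at -0.030. With these trends taken out, the median of all tested genes was -0.17 without the block and -0.16 with it. With a library left out, the range was -0.60 to 1.86 for *Ago3*, -0.41 to 0.19 for *Cnot10*, -0.44 to 0.056 for *Cnot11*, -1.08 to 0.28 for *Cnot2*, -0.79 to 0.20 for *Cnot3*, -0.54 to 0.83 for *Cnot6*, -0.48 to 0.60 for *Cnot6l*, -1.06 to 0.73 for *Cnot7*, -0.80 to 0.39 for *Ddx6*, -0.31 to 0.24 for *Lsm14b*, -0.58 to 0.13 for *Smg6*, -0.14 to 1.04 for *Tnrc6a*, -0.51 to 0.031 for *Tob2*, -2.30 to 0.56 for *Upf2* and -0.70 to 0.29 for *Xrn1*.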
